A study of Mus musculus with 10 samples.

Results

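The thioredoxin and peroxidase genes examined here are 10 redox genes that spermatids use or share with other cells. They were chosen by symbol from the 15507 genes of the deposited table, and all 10 were listed, each with at least 65 reads in every library. 5 of them are enriched in testis (Txndc2, Txndc8, Nme8, Txnrd3 and Nme5) and 5 are expressed widely (Txn1, Txnrd1, Gpx4, Prdx4 and Prdx6). RNA was sequenced from germ cells of 5 WT mice and of 5 homozygous GRTH-KI mice, all 45 days old, as 1 poly(A) library per mouse. The KI animals bear a human GRTH gene that has the R242H change, and GRTH is the RNA helicase encoded by Ddx25 in the mouse. The cells were dispersed from whole testes with collagenase and trypsin and hold spermatogonia, spermatocytes and spermatids together. The mouse strain is not given in the sources used here.

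Thioredoxins are small proteins that reduce disulfide bonds of other proteins through a pair of cysteines, and thioredoxin reductases recharge them with electrons from NADPH. Peroxiredoxins and glutathione peroxidases remove hydrogen peroxide and lipid peroxides with electrons from thioredoxin or glutathione. Male germ cells carry dedicated members of this system besides the general ones, and many proteins of mature sperm are cross-linked by disulfides. Txndc2 and Nme8 encode thioredoxins of the sperm tail, Txndc8 a thioredoxin of spermatids, and Txnrd3 a reductase that acts on both thioredoxin and glutathione disulfides. Nme5 belongs to the nucleoside diphosphate kinase family, to which Nme8 is also related, and is a protein of motile cilia and flagella. Txn1 and Txnrd1 encode the general cytosolic thioredoxin and its reductase. Gpx4 encodes the phospholipid hydroperoxide glutathione peroxidase, which also becomes a structural protein of the sperm midpiece. Prdx4 encodes a peroxiredoxin of the endoplasmic reticulum and Prdx6 a peroxiredoxin with a single active cysteine.

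The coding sequences show what sets the members apart. The 4 thioredoxin genes share 1 active-site stretch, given here in the sense of the gene with the codons of its cysteine pair and the residues between them in capitals (in frame TGT or TGC, then GGN, CCN, and TGT or TGC). It was found once in the longest coding model of each gene in GENCODE vM21 on mm10.
Txn1, chr4:57951809-57951844, minus strand: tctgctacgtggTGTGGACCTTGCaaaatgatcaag
Txndc2, chr17:65637729-65637764, minus strand: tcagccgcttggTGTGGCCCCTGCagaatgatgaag
Txndc8, chr4:58007087-58007122, minus strand: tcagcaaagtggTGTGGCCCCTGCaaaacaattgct
Nme8, chr13:19696647-19696682, minus strand: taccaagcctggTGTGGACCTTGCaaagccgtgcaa
In Txn1 the capitals begin at codon 32 of 105, whereas in Txndc2 they begin at codon 477 of 550, so that a long region precedes the thioredoxin part. In Nme8 they begin at codon 39 of 586, with 544 codons after them. Gpx4, Txnrd1 and Txnrd3 encode selenoproteins, in which a TGA codon is read as selenocysteine, and this annotated codon is in capitals in the next stretches.
Gpx4, chr10:80054725-80054751, plus strand: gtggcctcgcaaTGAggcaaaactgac
Txnrd1, chr10:82896025-82896042, plus strand: cagtctggctgcTGAggt
Txnrd3, chr6:89674777-89674794, plus strand: cagaaaggctgcTGAggc
In both reductases the TGA is followed by 1 last codon before the stop codon, whereas in Gpx4 124 codons follow. The coding sequences of Txnrd3 and Txnrd1 were identical at 67.6% of 1797 aligned bases.

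The values are normalized counts, the read counts of a library divided by its size factor, and a library held 13323024 to 16422347 reads on genes for WT and 12722086 to 15500582 for KI. The targeted gene Ddx25 stood at 8231 ± 2209 normalized counts in WT and at 101.0 ± 91.7 in KI (SD over 5 libraries each), in reads mapped to the mouse genome. Libraries 4 and 5 of both genotypes stood apart from libraries 1 to 3 in their expression, and Ddx25 was at 2.89 and 1.84 in KI libraries 4 and 5 but at 146 to 194 in KI libraries 1 to 3. No label names a batch that sets these libraries apart, although libraries 1 to 3 and libraries 4 and 5 differ in read quality in the study. The fold changes and ratios of the 10 genes are therefore also given within libraries 1 to 3 and within libraries 4 and 5. Of 10 markers of elongating spermatids 10 were down-regulated in KI, and their summed normalized count was 289284 to 484867 in the WT and 66637 to 97955 in the KI libraries. Round spermatid markers were down-regulated in 2 of 10 cases, with sums of 39399 to 55355 and 17921 to 34558. Of 10 spermatocyte markers 0 were called by limma, DESeq2 or edgeR. By the limma adjusted p alone 5 round spermatid markers and 1 spermatocyte marker were lower and 0 of either were higher. In bulk samples such as these, fewer cells of a type and less RNA per cell cannot be told apart.

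The comparison of KI with WT asks how the redox genes of germ cells stand when spermatids do not complete their development. Fold changes are differences of mean log2(normalized count + 1), KI against WT, tested with limma across the 15389 genes that passed a filter on low counts, with Benjamini-Hochberg adjustment over all of them. Differential expression required a fold change of 1.5 or more besides an adjusted p below 0.05. Of the 10 genes, 5 were down-regulated in KI (Txndc2, Txndc8, Nme8, Gpx4 and Prdx4) and 1 was up-regulated (Txn1). Of all genes tested 8.22% were down-regulated, 6.13% up-regulated and 14.4% differentially expressed in either direction. The median log2 fold change was −0.54 over the 10 genes and 0.03 over all genes. By the adjusted p alone 6 were lower and 1 higher, where 13.3% of all genes were lower, 9.65% higher and 22.9% either. The libraries of the genotypes did not overlap, with KI lower, in 5 of the 10 genes (Txndc2, Txndc8, Nme8, Nme5 and Gpx4) and in 10.9% of all genes, and with KI higher in 0 of the 10 and in 6.8% of all genes (17.7% in either direction).

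**Figure D1:**
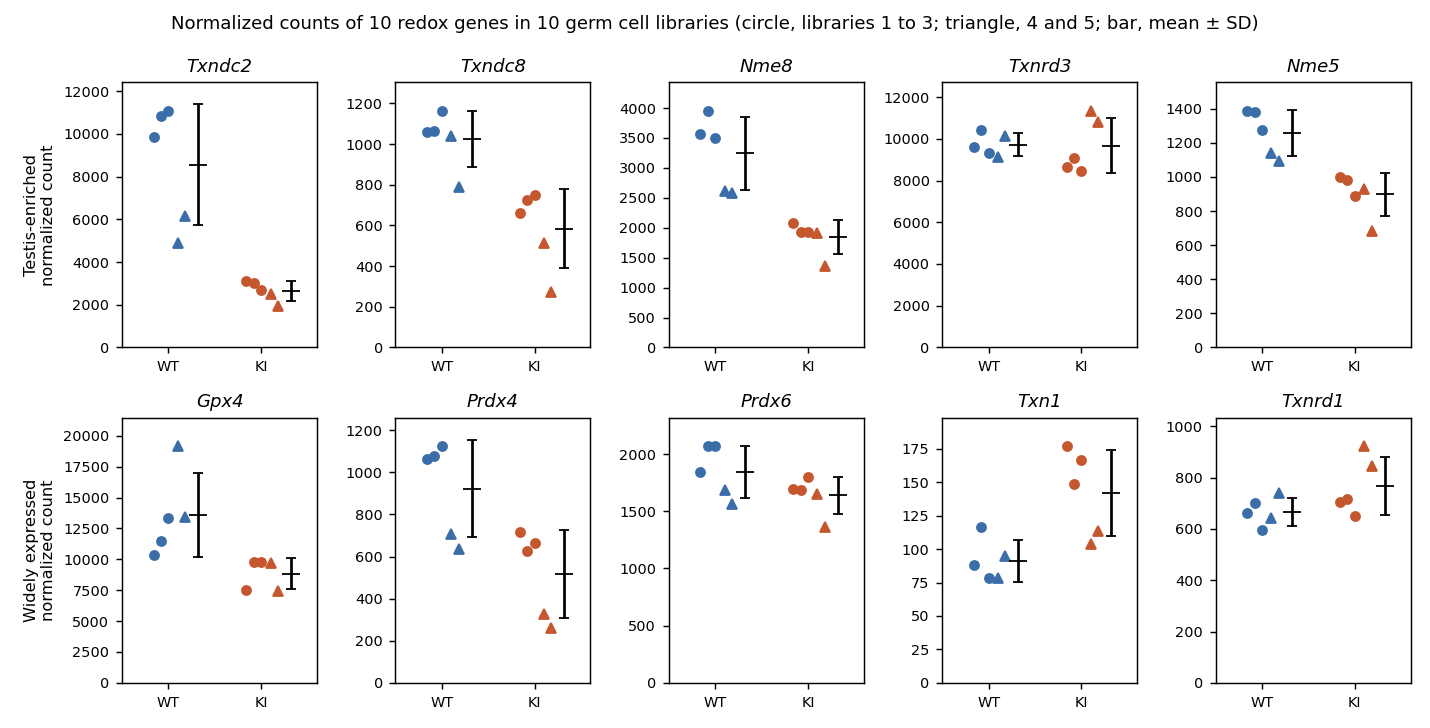
Normalized counts (y axes, from 0) of the 5 testis-enriched genes (upper row) and the 5 widely expressed genes (lower row) in the WT and KI libraries, with circles for libraries 1 to 3, triangles for libraries 4 and 5, and bars for the mean ± SD of 5 libraries. All KI libraries lie below all WT libraries for Txndc2, Txndc8, Nme8, Nme5 and Gpx4, and the ranges overlap for the other 5 genes.

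Txndc2 (mm10 chromosome 17, 65637505 to 65642204, minus strand, protein-coding), whose protein sits in the fibrous sheath of the sperm tail, changed most of the 10 genes. Its normalized counts in WT libraries 1 to 5 were 9844, 10853, 11085, 4875 and 6172, and in KI libraries 1 to 5 they were 3131, 3000.1, 2696, 2488 and 1922. The highest KI library lay below the lowest WT library, although WT libraries 4 and 5 held much less than the other WT libraries. On the log2 scale the fold change was −1.64 (SE 0.21, limma adjusted p = 4.82e-05), so that WT held 3.12 times as much, and 1.48% of all genes tested had a lower value. It was −1.85 within libraries 1 to 3 and −1.33 within libraries 4 and 5. WT libraries 4 and 5 also held less of the elongating spermatid markers, with sums of 289284 to 292406 against 406462 to 484867 in WT libraries 1 to 3. The sums of KI libraries 4 and 5, 66637 to 91216, overlapped those of KI libraries 1 to 3, 88152 to 97955. Sums of round spermatid markers were lower in libraries 4 and 5 of both genotypes, without overlap. They were 39398.6 to 46358.4 against 52318.5 to 55355.2 in WT, and 17920.6 to 25259.8 against 32839.2 to 34558.3 in KI. The part of these markers in the fall of Txndc2 was not tested.

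Txndc8 (chromosome 4, 57984029 to 58009126, minus strand, protein-coding) encodes a thioredoxin of spermatids. Its normalized counts were 1059.7, 1064, 1164, 1042 and 792 in the WT libraries and 663, 725, 749.5, 514 and 274 in the KI libraries. The genotypes did not overlap, and KI library 5 was the lowest. Its log2 fold change was −0.88 (SE 0.22, limma adjusted p = 0.00922), with −0.62 within libraries 1 to 3 and −1.27 within libraries 4 and 5. Nme8 (chromosome 13, 19645079 to 19697760, minus strand, protein-coding), which joins a thioredoxin part to nucleoside diphosphate kinase parts, had 3562, 3955, 3505, 2622 and 2577 normalized counts in WT and 2076, 1934, 1934, 1917 and 1357 in KI. KI was again below WT in every library. The log2 fold change of Nme8 was −0.81 (SE 0.14, limma adjusted p = 6.65e-04), with −0.89 and −0.69 in the 2 groups of libraries. When libraries were scaled to their totals, it was −0.58 and fell just short of the fold change threshold.

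Txn1 (chromosome 4, 57943373 to 57956411, minus strand, protein-coding), the general thioredoxin, went the other way. Normalized counts were 87.9, 117, 78.5, 78.2 and 95.1 in WT libraries 1 to 5 and 177, 149, 167, 104 and 113 in KI libraries 1 to 5. KI libraries 1 to 3 lay above all WT libraries, whereas KI libraries 4 and 5 lay within the WT range. Txn1 thus had a log2 fold change of 0.62 with SE 0.17 (limma adjusted p = 0.0175), with 0.81 within libraries 1 to 3 and 0.33 within libraries 4 and 5, where it did not pass (adjusted p = 0.432). Leaving out WT library 3 (0.57), WT library 4 (0.56), KI library 1 (0.53) or KI library 3 (0.55) brought it below the fold change threshold, as did a pseudocount of 10 (0.57). Markers of Leydig cells, which make testosterone between the tubules, were up-regulated in 4 of 7 cases (6 by DESeq2 and 3 by edgeR), and their summed normalized count was 10875 to 19503 in WT and 15729 to 27046 in KI. Macrophage markers were up-regulated in 4 of 8, with sums of 654 to 878 and 927 to 1332. Of 8 Sertoli cell markers 0 were called by limma, DESeq2 or edgeR, and 1 was higher by the limma adjusted p alone. Peritubular myoid markers were up-regulated in 2 of 4, with sums of 120.2 to 208 and 191 to 236, and endothelial markers in 1 of 5, with sums of 104 to 181 and 160 to 233. Of 5 red blood cell markers 1 was up-regulated and 1 down-regulated, with sums of 403 to 605 and 527 to 981. No marker of these lists was at 0 in all libraries, and their part in the rise of Txn1 was not tested.

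Txn1 and Txndc8 are neighbours on the minus strand of chromosome 4, with 27.6 kb between them, and they moved in opposite directions. The 250 bases before the start site of each gene, from RefSeq on GRCm38.p6, are shown in the sense of the gene so that the letters of the pair can be compared. Capitals mark GGGCGG and its reverse complement CCGCCC, the core of the GC box.
Txndc8, chr4:58009127-58009376: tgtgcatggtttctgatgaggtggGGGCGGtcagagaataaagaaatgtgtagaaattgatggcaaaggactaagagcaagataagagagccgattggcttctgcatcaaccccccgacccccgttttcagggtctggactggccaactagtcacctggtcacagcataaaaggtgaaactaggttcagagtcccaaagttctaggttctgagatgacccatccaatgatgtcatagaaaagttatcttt
Txn1, chr4:57956412-57956661: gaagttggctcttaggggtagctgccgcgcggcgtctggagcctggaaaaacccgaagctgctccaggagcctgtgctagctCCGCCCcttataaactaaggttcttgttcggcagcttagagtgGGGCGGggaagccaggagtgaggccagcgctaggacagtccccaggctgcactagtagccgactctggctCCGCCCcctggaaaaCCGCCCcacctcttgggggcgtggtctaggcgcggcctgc
The window of Txn1 holds 4 such matches and 1 TATAAA, which 12.4% of all windows hold, and that of Txndc8 holds 1, and 32.7% of 32851 promoter windows of this length hold at least 1. The dinucleotide CG occurs 15 times before Txn1 and 4 times before Txndc8, against a median of 6 over all windows. CCAAT occurs 2 times before Txndc8 and 0 times before Txn1, and in 33.8% of all windows. Txndc2 has 3 CG in 1 window and 0 in another, both with 0 matches to GGGCGG. Of other genes that fell, Prdx4 has 13 CG and 3 matches, and Nme8 7 CG and 0 matches. The windows of Gpx4, which also fell, have 2 to 24 CG and 0 to 2 matches. Txnrd3, which was not called, has 13 CG and 0 matches. TGACGTCA, the cAMP response element, occurs in 1.55% of all windows and in none of those of the 8 genes with an entry on chromosomes other than 18. These matches are a description of the letters in these windows.

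Neither reductase was differentially expressed. Txnrd3 (chromosome 6, 89643988 to 89675529, plus strand, protein-coding) had 9624, 10424, 9323, 9122 and 10123.5 normalized counts in WT and 8651, 9057, 8459, 11344 and 10815 in KI. The KI values surrounded the WT values, with KI libraries 1 to 3 below and KI libraries 4 and 5 above all WT libraries. Its log2 fold change was −0.02 (95% interval −0.24 to 0.20, limma adjusted p = 0.931), which leaves a change of more than 1.5-fold in either direction outside the interval. It was −0.17 within libraries 1 to 3 and 0.20 within libraries 4 and 5. When libraries were scaled to their totals it was 0.21 (limma adjusted p = 0.0495), a scaling that moved the median of all genes from 0.03 to 0.25. Txnrd1 (chromosome 10, 82833951 to 82897724, plus strand, protein-coding) had 660.1, 699, 594, 643 and 738 normalized counts in WT and 705, 716, 649.7, 922 and 845 in KI. Its ranges overlapped, and KI libraries 4 and 5 were again the highest. For Txnrd1 the log2 fold change was 0.19 (95% interval −0.04 to 0.42, limma adjusted p = 0.221), with 0.09 within libraries 1 to 3 and 0.36 within libraries 4 and 5. Under scaling to library totals it was 0.42 (limma adjusted p = 0.00423), still below the fold change threshold.

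Nme5 (chromosome 18, 34562634 to 34579115, minus strand, protein-coding), the flagellar kinase family member without a thioredoxin stretch, had 1388, 1382, 1274, 1139 and 1094 normalized counts in WT and 1001, 980.3, 891, 929.9 and 684 in KI. All KI libraries were below all WT libraries, but by a smaller step than for Txndc2 or Nme8. With a log2 difference of −0.49 (SE 0.11), Nme5 passed the p threshold (limma adjusted p = 0.00583) and not the fold change threshold. It was nearly equal in the 2 groups of libraries, at −0.49 and −0.49 (limma adjusted p = 1.86e-04 and 0.0849). When libraries were scaled to their totals it was −0.26 and did not pass the p threshold (limma adjusted p = 0.0870).

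Among the peroxidases, Gpx4 (chromosome 10, 80047166 to 80056439, plus strand, protein-coding) had the highest counts. It had 10361, 11470.4, 13363, 19168 and 13459 normalized counts in WT and 7513, 9773, 9814, 9678 and 7477 in KI. The lowest WT library lay only a little above the highest KI library, and WT library 4 was far above the other WT libraries. KI differed from WT by −0.59 on the log2 scale (SE 0.15, limma adjusted p = 0.0102), with −0.38 within libraries 1 to 3 and −0.92 within libraries 4 and 5. It lay close to the fold change threshold and fell short of it when WT library 4 (−0.46), KI library 1 (−0.54) or KI library 5 (−0.54) was left out, and when libraries were scaled to their totals (−0.37), upper quartiles (−0.50) or spermatocyte markers (−0.53). The cytosolic, mitochondrial and nuclear forms of the enzyme come from the same gene and were not told apart by the counts per gene.

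Prdx4 (chromosome X, 155323918 to 155338460, minus strand, protein-coding) had 1063, 1076, 1124, 706 and 637 normalized counts in WT and 715, 626, 666, 329 and 259 in KI. The genotypes overlapped over all libraries because WT libraries 4 and 5 lay among KI libraries 1 to 3, but within each group of libraries every KI library was below every WT library. The log2 fold change was −0.90 (SE 0.26, limma adjusted p = 0.0222), with −0.70 within libraries 1 to 3 (adjusted p = 6.22e-06) and −1.20 within libraries 4 and 5 (adjusted p = 7.63e-04). Its adjusted p was between 0.0540 and 0.0603 when WT library 1, 2 or 3 or KI library 4 was left out, and 0.0688 when libraries were scaled to their totals (log2 fold change −0.67).

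Prdx6 (chromosome 1, 161240112 to 161251210, minus strand, protein-coding) had 1841, 2069.6, 2067, 1687 and 1559.6 normalized counts in WT and 1695.5, 1685, 1803, 1653 and 1365 in KI. The ranges overlapped, and the log2 fold change of −0.17 (95% interval −0.39 to 0.06, limma adjusted p = 0.285) did not pass and turned to 0.06 under scaling to library totals. It was −0.20 within libraries 1 to 3 and −0.11 within libraries 4 and 5. The table lists a copy of this gene, Prdx6b, whose coding sequence is identical to that of Prdx6 at 92.9% of 672 bases, so that reads may have been shared between them. Prdx6b, which was added after its values were seen, had 7863 to 9757 normalized counts in WT and 5733 to 6808 in KI, with no overlap (log2 fold change −0.47, limma adjusted p = 0.00197). Per exon length it was at a median TPM of 542 in WT, against 69.5 for Prdx6.

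**Figure D2:**
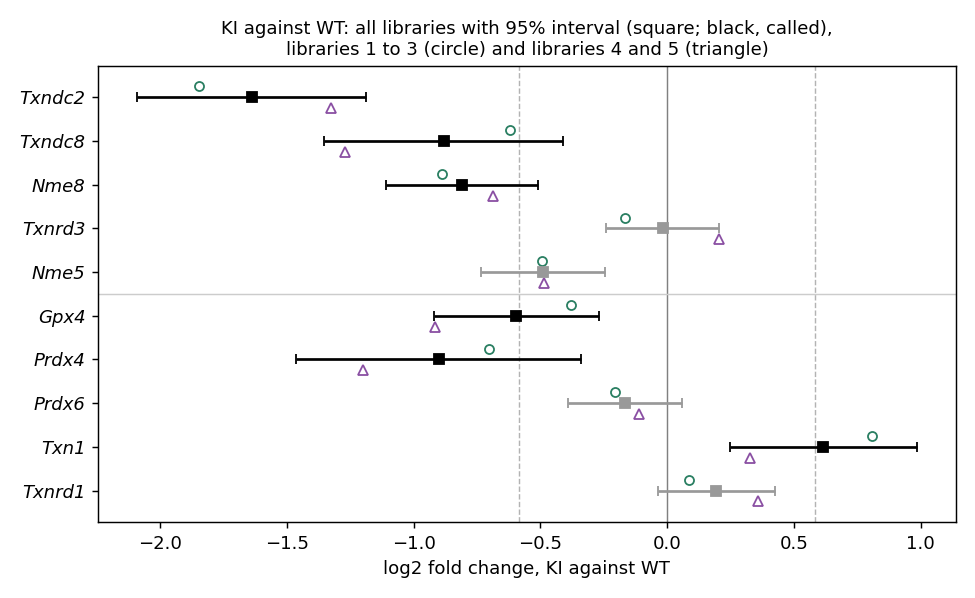
Log2 fold change, KI against WT (x axis), of each gene over all libraries with its 95% interval (squares, black where differentially expressed), within libraries 1 to 3 (circles) and within libraries 4 and 5 (triangles). Dashed lines mark a 1.5-fold change, and Txndc2 lies furthest to the left at −1.64 while Txn1 is alone past the line on the right at 0.62.

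Fold changes in libraries 1 to 3 and in libraries 4 and 5 were compared with an interaction term in limma. At an adjusted p under 0.05, 0 of the 10 genes were called, against 0.247% of all genes tested, and 5 had an unadjusted p under 0.05, as did 16.1% of all genes. The difference was 0.52 for Txndc2 (SE 0.18, adjusted p = 0.158), −0.65 for Txndc8 (SE 0.26, adjusted p = 0.226) and −0.50 for Prdx4 (SE 0.17, adjusted p = 0.156). For Gpx4 it was −0.54 (SE 0.23, adjusted p = 0.256) and for Txnrd3 0.37 (SE 0.14, adjusted p = 0.200). The difference for Txn1 was −0.48 (SE 0.28, adjusted p = 0.410).

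The testis-enriched and the widely expressed genes were then set against each other. In the testis-enriched class of 5, 3 fell and 0 rose (limma, DESeq2 and edgeR), with a median log2 fold change of −0.81. In the widely expressed class of 5, 2 fell and 1 rose, with a median of −0.17. Of all genes tested 8.22% fell and 6.13% rose. By the limma adjusted p alone 4 testis-enriched genes were lower and 0 higher, and 2 widely expressed genes were lower and 1 higher. The shares of all genes by that rule were 13.3% lower and 9.65% higher. The widely expressed genes that fell were Gpx4 and Prdx4, so that the class did not separate the genes that fell from those that did not. Txnrd3, with an interval of −0.24 to 0.20, did not fall with the 3 testis-enriched thioredoxins.

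Ratios of a pair of genes within the same library do not depend on how the library was scaled, and gene length cancels in their difference between genotypes. The ratio was compared for 5 pairs by exact permutation of the genotype labels (two-sided), whose smallest p is 0.00794, with adjustment over the 5 pairs. Each difference between genotypes follows from the fold changes of the pair given above, and the pairs with Txn1 share its rise of 0.62. These tests are therefore not separate from the calls of the genes, nor from each other. The log2 ratio of Txndc2 to Txn1 per exon length was 5.56 ± 0.51 in WT and 3.30 ± 0.23 in KI (SD over 5 libraries each). The difference of −2.26 was the largest of the 5 (exact permutation test, adjusted p = 0.00992), and it was −2.66 within libraries 1 to 3 and −1.65 within libraries 4 and 5. For Txndc8 to Txn1, the neighbours on chromosome 4, it was −1.497, and for Nme8 to Txn1 −1.43, both with the same p and with no overlap between genotypes. Within libraries 1 to 3 and within libraries 4 and 5 the difference was −1.43 and −1.60 for Txndc8, and −1.70 and −1.02 for Nme8.

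The log2 ratio of Txnrd3 to Txnrd1 was 5.19 ± 0.073 in WT and 4.98 ± 0.037 in KI (SD over 5 libraries each). Its difference of −0.21 was small, but the ratio varied so little between libraries that the genotypes did not overlap (exact permutation test, adjusted p = 0.00992). In libraries 1 to 3 alone the difference was −0.25, and in libraries 4 and 5 alone it was −0.15. The ratio of Prdx4 to Prdx6, a pair of widely expressed genes, fell by 0.73 on the log2 scale (exact permutation test, adjusted p = 0.0238). Here WT libraries 4 and 5, at −0.07 and −0.10, lay below KI library 1, at −0.05, so that the genotypes overlapped over all libraries. Within libraries 1 to 3 (−0.50) and within libraries 4 and 5 (−1.09) they did not overlap, with KI below WT. The permutation did not use these groups of libraries.

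**Figure D3:**
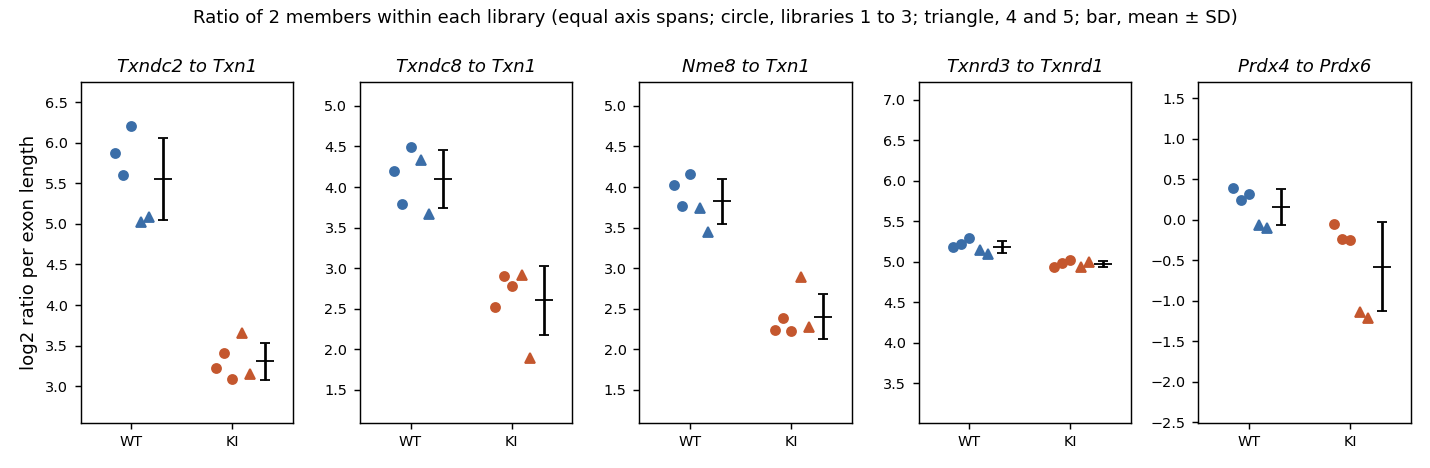
Log2 ratio per exon length (y axes, equal spans) of 5 pairs of genes within each WT and KI library, with circles for libraries 1 to 3, triangles for libraries 4 and 5 and bars for the mean ± SD. The ratios of Txndc2, Txndc8 and Nme8 to Txn1 differ by −2.26, −1.497 and −1.43 between KI and WT, and that of Txnrd3 to Txnrd1 by −0.21 with little spread.

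Levels of different genes were compared per exon length as TPM, the share of transcripts per exon length, computed from the recovered reads. Gpx4 had the highest level in WT, with a median TPM of 1339 (range 1089.6 to 2058). Txndc2 followed at 898 (454 to 963) and Txnrd3 at 615 (568 to 705), which overlapped each other but not Gpx4 or the next gene. Txndc8 at 281, Nme8 at 233 and Nme5 at 191 came next, and each overlapped its neighbour in the order. Prdx4 at 87.6 and Prdx6 at 69.5 overlapped, as did Txnrd1 at 16.9 and Txn1 at 15.2, the lowest. All 5 testis-enriched genes therefore lay above the general thioredoxin and its reductase in WT germ cells, and the order of the 10 medians was the same with the length of the longest coding transcript. TPM is scaled to the library total, so levels were ordered within a genotype and not tested between genotypes. In KI the median of Txndc2 was 314, below Txnrd3 at 737, and the ranges of these genes did not overlap. The median TPM of Txn1 was 32.03 in KI, above that of Txnrd1 at 24.1, with overlapping ranges.

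**Figure D4:**
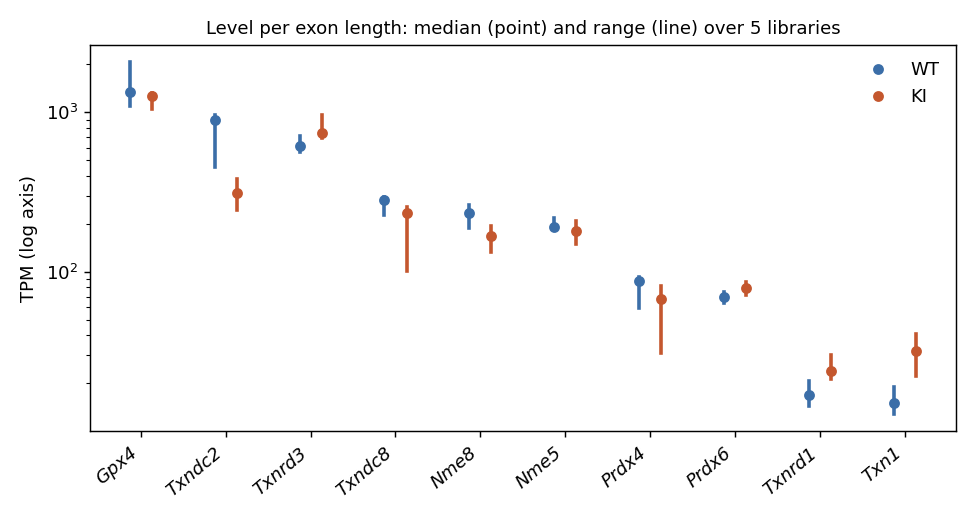
Level per exon length of the 10 genes as TPM (log y axis), ordered by their WT median, with points for the median and lines for the range over the 5 WT and the 5 KI libraries. Gpx4 is highest in both genotypes, and Txndc2, second in WT at 898, is below Txnrd3 in KI at 314.

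The other redox genes were taken from 9 lists, and 94 of them were tested. In KI 6 of these fell (6.38%) and 4 rose (4.26%), against 8.22% and 6.13% of all genes tested. Their median log2 fold change was 0.09, against 0.03 over all genes. The count of 4 was 7 without WT library 2, 10 without KI library 4, and 2 without KI library 1, 3 or 5. Scaling to library totals gave 3 lower and 19 higher. Of all genes it gave 789 lower and 2145 higher, against 1265 and 944 in the main fit, with the median of all genes at 0.25. Of 18 other genes of the thioredoxin system 0 were called by limma, DESeq2 or edgeR, with a median of 0.02. At an unadjusted limma p under 0.05 there were 4, and by the adjusted p alone 2, both higher. Among 5 other peroxiredoxin and sulfiredoxin genes only Srxn1 was called, which encodes the sulfiredoxin that repairs overoxidized peroxiredoxins. Srxn1 was down-regulated from 453 ± 83.1 to 279 ± 48.3 normalized counts (SD, n = 5 each, log2 fold change −0.69, limma adjusted p = 0.00294).

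Of 13 other glutathione peroxidase, glutaredoxin and glutathione synthesis genes 2 were down-regulated. Glrx2, a glutaredoxin, had the lowest fold change of all redox genes examined, with 624, 617, 609.9, 419 and 478 normalized counts in WT and 119, 103, 118, 111 and 92.0 in KI. The genotypes were far apart, and the log2 fold change of Glrx2 was −2.32 (SE 0.13, limma adjusted p = 2.71e-08). Gpx6, a glutathione peroxidase, fell from 187 ± 52.8 to 87.1 ± 11.8 normalized counts (SD, n = 5 each, log2 fold change −1.05, limma adjusted p = 7.41e-04), with −0.67 within libraries 1 to 3 and −1.63 within libraries 4 and 5. Among 19 glutathione transferases, which attach glutathione to other molecules, Gstm5 was down-regulated (log2 fold change −0.71, limma adjusted p = 0.0143) and Gstt1 up-regulated (0.92, adjusted p = 0.0301). Gstt1 was low, with means of 21.6 normalized counts in WT and 40.1 in KI, and the genotypes overlapped for both genes. By the limma adjusted p alone 2 of the 19 were lower and 5 higher, with a median log2 fold change of 0.29. Of all genes tested 13.3% were lower and 9.65% higher by that rule. Of 4 superoxide dismutase and catalase genes 0 were called (1 at an unadjusted p under 0.05, and 0 by DESeq2 or edgeR).

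Selenoproteins are relevant because Gpx4, Txnrd1 and Txnrd3 need the machinery that inserts selenocysteine. Of 8 genes of that machinery 0 were called by limma (2 at an unadjusted p under 0.05, both higher, and 0 by DESeq2 or edgeR), with a median log2 fold change of 0.04. Among 13 other selenoproteins, Selenok of the endoplasmic reticulum (log2 fold change −0.91, limma adjusted p = 7.85e-06) and Selenov, which is enriched in testis (−0.61, adjusted p = 9.10e-04), were down-regulated. Selenop, which carries selenium between tissues, was up-regulated from 996 ± 213 to 1625 ± 399 normalized counts (SD, n = 5 each, log2 fold change 0.70, limma adjusted p = 0.00551). By the limma adjusted p alone 5 of the 13 were lower and 1 higher, against 13.3% and 9.65% of all genes. Of 6 other nucleoside diphosphate kinase genes Nme3 was up-regulated (log2 fold change 0.70, limma adjusted p = 0.00746). Of 8 regulators and targets of NRF2, the transcription factor of the oxidative stress response, only G6pdx, which makes NADPH, was up-regulated (0.63, limma adjusted p = 0.0147). By the limma adjusted p alone 2 of the 8 were higher and 0 lower.

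**Figure D5:**
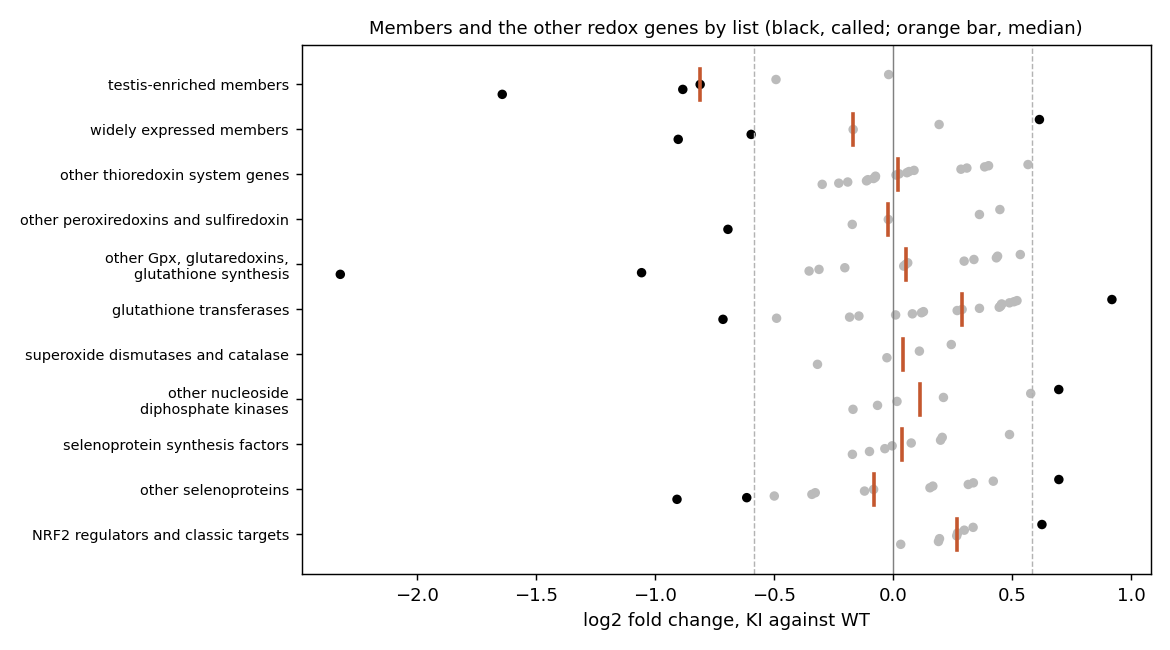
Log2 fold change, KI against WT (x axis), of the 10 genes and of the 94 other redox genes tested, by list (rows), with black points for differentially expressed genes and orange bars for list medians. Dashed lines mark a 1.5-fold change, and the 5 testis-enriched genes have the lowest median at −0.81.

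Finally, the genes most like 4 of the members were named by the root mean square difference of their log2 values, centred on the WT mean, over the 10 libraries. Nearest to Txndc2 were Ccdc54, Rnf133 and Asb17, at differences of 0.0950, 0.110 and 0.111. Dgkeos, Fam3b and Asb9 were nearest to Txndc8, at 0.0738, 0.103 and 0.108. For Txnrd3 they were Xpo5, Mapkap1 and Wee1, at 0.0402, 0.0416 and 0.0416, whose log2 fold changes were 0.00, 0.01 and 0.00. Ak8, Mok and Anapc15 lay nearest to Prdx6, at 0.0629, 0.0633 and 0.0638.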

How the data were processed

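RNA-Seq of 10 libraries was analysed. Per the methods, trimmed reads were mapped by STAR (mm10), and genes of RefSeq_v91 were quantified in Partek by its E/M model. The values the authors deposited are a normalized signal, the count divided by a size factor per library (tool versions are not given in the sources used here). Below 5000 reads, 100% of values in each library were whole reads times a constant (tolerance 0.1 read), and DESeq2 size factors of the recovered reads matched that value to within 9.46e-06 percent. Columns not assigned to a library numbered 0. The end position of a gene is the last base, 1 below that in the table.

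Limma (3.58.1, R 4.3.3) with a variance trend was run on log2(signal + 1) for the 15389 genes that passed filterByExpr of edgeR (4.0.16). DESeq2 (1.42.0) and edgeR's quasi-likelihood test on the recovered reads were alternatives. Thresholds were an adjusted p of 0.05 and a fold change of 1.5. The scripts were tested on simulated data. P-values measure the spread between mice. Intervals of fold changes come from the spread between libraries. TPM used the union of GENCODE vM21 exons. Whether counting used strand is not given, and no exon of another GENCODE gene overlapped those of the 10 genes. Libraries with the same number in both genotypes deviated together (r = 0.306, 0.105, 0.280, 0.216 and 0.462 after removing genotype means). Other pairs of the same library group had a mean r of 0.134 and pairs across the library groups −0.201, so that part of this is shared within libraries 1 to 3 and within libraries 4 and 5. Since each r was over 0.1, the number was used as a block in an alternative. Replicates differed by a chi-square per degree of freedom of 2.67 to 46.4, so none was a duplicate. Named were all 10 genes, Ddx25, up to 4 differentially expressed genes per list, and the 3 genes most like each of 4 members. The genes, lists and pairs were chosen with earlier results of these data known.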

Additional observations from a re-analysis of the deposited data

Results flagged for a closer look

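Each of the 10 genes was examined in each genotype for a library far from the other 4, in 20 groups of 5 libraries, of which chance flags about 1 in 20. Nme8 in KI library 5, at 1357 normalized counts, lay apart from the other KI libraries, whose values were 1917 to 2076. The gap was 0.778 of the range of the group, above the limit of 0.710. Without KI library 5 the log2 fold change of Nme8 was −0.70 and still passed both thresholds.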

How the results depend on the processing

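Txndc2 and Txndc8 kept their direction and their call in all 25 alternatives, with log2 fold changes of −1.85 to −1.33 and −1.27 to −0.62. Nme8 lost its call in 1, Gpx4 in 7, Prdx4 in 5 and Txn1 in 6 of 25, without a change of sign. Txnrd3 turned above 0 under library totals (0.21), upper quartile (0.076) and spermatocyte marker scaling (0.049), and in libraries 4 and 5 alone (0.20). It also did so without WT library 2 or without KI library 1, 2 or 3 (at most 0.028). With any other library left out Txnrd3 stayed below 0 (at lowest −0.078). Prdx6 turned to 0.063 under library totals, where Nme5, at −0.26, no longer passed the adjusted p (0.0870). Under the same scaling Txnrd3 and Txnrd1 passed the limma adjusted p (0.0495 and 0.00423) but not the fold change threshold. The replicate block (library number as a block) left the counts of 5 down-regulated and 1 up-regulated genes as they were and changed no other call of the 10 genes. Down-regulated members numbered 2 under library totals, 3 at an adjusted p under 0.01 and 1 at a 2-fold change. They numbered 4 under upper quartile scaling, under spermatocyte marker scaling and in libraries 1 to 3 alone, and 4 to 5 when a library was left out. Up-regulated members numbered 0 with a pseudocount of 10, in libraries 4 and 5 alone and at both stricter thresholds, and 0 to 1 when a library was left out. Down-regulated redox genes numbered 3 under library totals, 10 at an adjusted p alone and 2 at a 2-fold change. Up-regulated redox genes numbered 19 under library totals, 7 with upper quartile scaling, 11 in libraries 1 to 3 alone, 0 in libraries 4 and 5 alone, 13 at an adjusted p alone, 2 at an adjusted p under 0.01, 0 at a 2-fold change, and 2 to 10 when a library was left out. All differentially expressed genes numbered 2209, with 3529 at an adjusted p alone, 1655 at an adjusted p under 0.01 and 969 at a 2-fold change. Of all genes 1265 were down-regulated and 944 up-regulated in the main fit. Under library totals these were 789 and 2145, and under upper quartile scaling 1025 and 1296. In libraries 1 to 3 alone they were 1348 and 1108, and in libraries 4 and 5 alone 1093 and 471. Under library totals 73.1% of calls were up-regulated, against 42.7%, and 55.8% under upper quartile scaling. In libraries 4 and 5 alone 30.1% were. The difference in log2 ratio to Txn1 was −1.65 for Txndc2 and −1.02 for Nme8 in libraries 4 and 5 alone. Causes of these shifts were not tested, apart from stricter thresholds calling fewer genes by construction. With 65 to 200 reads per library, Txn1 was the least precisely counted of the 10 genes.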
